A study of Mus musculus with 6 samples.

Results

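Pi16 Dpp4 fibroblasts are the fibroblasts of the dermal lymphatic preparations in which transcripts of both Pi16 and Dpp4 were detected. A droplet barcode was taken as a cell when it held 500 or more detected genes and no more than 10% of its UMIs (unique molecular identifiers, each standing for 1 captured transcript) were mitochondrial. A cell was called a fibroblast when Col1a2, Dcn and Pdgfra together had at least 5 UMIs and neither Ptprc nor Pecam1, markers of leukocytes and of endothelium, had any. A fibroblast with at least 1 Pi16 and at least 1 Dpp4 UMI was a member. The rule found 4760 members among 12037 fibroblasts (39.5%) and 24488 cells (19.4%), and the 7277 other fibroblasts of the same libraries were the comparison. All 4760 members entered the sums on which the results rest. The members were thus chosen by the measured UMIs of these 7 genes, whose values are given only as a description. Pi16 lies on chromosome 17 (29317680 to 29330593, plus strand) and Dpp4 on chromosome 2 (62330073 to 62412231, minus strand) in GRCm38.

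Fibroblasts of the adventitia, the outer connective tissue sheath of vessels, carry Pi16, a secreted or membrane-anchored peptidase inhibitor, and Dpp4, a surface peptidase that cleaves chemokines and hormones. Cells with both genes are found around vessels and in the fascia of many mouse organs. They share genes such as Cd55, Sema3c, Wnt2 and Anxa3, and in adipose tissue the Dpp4 cells stand upstream of Icam1 cells that are committed to become adipocytes and beside F3 (Cd142) cells that restrain that step. In skin and around collecting lymphatic vessels such cells lie in the loose connective tissue that is dissected with the vessel. The label adventitial refers to a place in the tissue, and dissociated cells carry no record of their place.

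The libraries came from 18-month-old, 12-month-old and 6-week-old C57BL/6 mice with no engineered allele given in the labels. Collecting lymphatic vessels, the muscular and valved vessels that pump lymph, were made visible with Evans Blue between the inguinal and axillary nodes, dissected, freed of fat, digested with collagenase, elastase and dispase, and run on droplets after lysis of red cells. There was 1 male-labelled and 1 female-labelled library at each age. The labels do not say how many mice a library holds, and p-values therefore measure the spread between these 6 libraries alone. The 18-month mice came from a national aging colony and the others are not said to, so age and supplier cannot be told apart.

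The sex labels of the 12-month pair went against the data. In members, Xist reached 1260 CPM (UMIs of the gene scaled to a common total of all UMIs in the sum) in the library labelled 12-month male and 0.280 CPM in the library labelled 12-month female, while 4 Y-linked genes summed to 0.206 and 289 CPM in the same order. The libraries labelled 18-month and 6-week had Xist and Y-linked UMIs as labelled. Sex was therefore kept out of the fits, and these 2 libraries are called by their labels. Library totals ran from 9616652 to 28921825 UMIs, and member sums from 1951296 to 5401161. No more than 12 cell barcodes and no more than 2 member barcodes were shared by any pair of libraries. The doublet caller Scrublet marked 0% to 2.53% of members per library, and these were kept.

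The 18-month female library stood apart in its other fibroblasts. There, 21 of 147 barcodes (14.3%) were rich in markers of other cell types, had a median of 55661 UMIs, and held 73.4% of the UMIs of the sum. Summed epithelial marker genes were at 61.0 CPM in members and 3647 CPM in other fibroblasts of this library, and at 40.2 and 26.3 CPM with those barcodes left out. Casein genes of milk were at 135 CPM in its members and 16829 CPM in its other fibroblasts. Over all libraries 51 members and 206 other fibroblasts were rich in such markers by the same measure, of which 34 members and 96 other fibroblasts by macrophage genes. Counts per gene list are therefore given with and without these barcodes, called the rich barcodes below, an alternative chosen after the data had been seen. Of the 77 named genes that passed, 74 could be tested again, and a fold that moved by more than 1.5 times, as it did for 3 of them, is given both ways.

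In members, Pi16 had a median of 4 UMIs a cell, with 86 as the highest, and Dpp4 a median of 2, with 18 as the highest. Many members lay at the edge of the rule. There were 1701 members (35.7%) with exactly 1 Dpp4 UMI, 762 (16.0%) with exactly 1 Pi16 UMI and 385 (8.09%) with exactly 1 of each. The fibroblast minimum mattered little, since 2 members had exactly 5 UMIs of the fibroblast genes and 2 cells with both genes missed that minimum by 1 UMI. Pi16 was at 933 to 1473 CPM in members and 162 to 293 CPM in other fibroblasts, and Dpp4 at 419 to 654 CPM in members and 46.4 to 115 CPM in other fibroblasts. Barcodes holding 1 to 50 UMIs, which carry mostly free RNA, had 102 to 326 CPM of Pi16 and 35.0 to 92.9 CPM of Dpp4. These ranges overlapped those of other fibroblasts, but they give the make-up of free RNA and not its amount in a cell. Barcodes with Ptprc UMIs and fewer than 5 fibroblast UMIs had 7.16 to 18.0 CPM of Pi16 and 10.3 to 28.0 CPM of Dpp4. Such barcodes with Pecam1 UMIs had 0 to 6.87 CPM of Pi16 and 0 to 8.49 CPM of Dpp4. The part of free RNA in the level of other fibroblasts was not tested.

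Few barcodes of other cell types had UMIs of both genes. Among barcodes with Ptprc UMIs and too few fibroblast UMIs, 1.38% to 6.84% had Pi16, 3.04% to 6.37% had Dpp4 and 0% to 0.536% had both, at median depths of 2013 to 3392 UMIs. Among barcodes with Pecam1 UMIs the shares were 0% to 4.29%, 0% to 6.25% and 0% to 0.654%, at 1927 to 6189 UMIs. The members had median depths of 3742 to 11222 UMIs and the other fibroblasts 2734 to 7704 UMIs. Within fibroblasts, 58.4% to 91.5% of Pi16-positive cells had Dpp4, against 21.9% to 43.2% of Pi16-negative ones, a description of the rule's own genes that was not matched for depth.

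The share of fibroblasts that were members varied widely between libraries. It was 25.1% in the 6-week male library (95% exact Clopper-Pearson interval 23.8% to 26.4%, 1146 of 4567) and 42.1% in the 6-week female library (39.8% to 44.4%, 766 of 1819). It was 39.2% (37.4% to 40.9%, 1216 of 3106) in the library labelled 12-month male and 68.0% (63.5% to 72.2%, 314 of 462) in the library labelled 12-month female. It was 62.4% (60.0% to 64.8%, 1026 of 1644) in the 18-month male library and 66.5% (61.9% to 70.9%, 292 of 439) in the 18-month female library. The 18-month libraries lay above both 6-week libraries, while the 12-month pair overlapped the 6-week pair. These intervals cover counting error only.

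Detection of 2 genes depends on depth, and the 12-month library with the highest share also had the deepest cells, with a median of 11222 UMIs in members against 3742 to 6282 in the members of the other libraries. With every fibroblast thinned to 2000 UMIs, the expected share was 16.2% and 30.3% at 6 weeks, 27.7% and 31.5% at 12 months, and 40.1% and 44.0% at 18 months, in the order male and female label, with 10 to 904 shallower fibroblasts left out per library. At that depth the 18-month mean exceeded the 6-week mean by 18.8 percentage points, against 30.9 as deposited, and the 12-month mean exceeded it by 6.35, against 20.0. The pooled SD of the deposited shares within an age was 13.8 points. With 2 libraries an age, an exact two-sided permutation test cannot go below p = 0.333. Fewer other fibroblasts and more members cannot be told apart from a share.

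**Figure D1:**
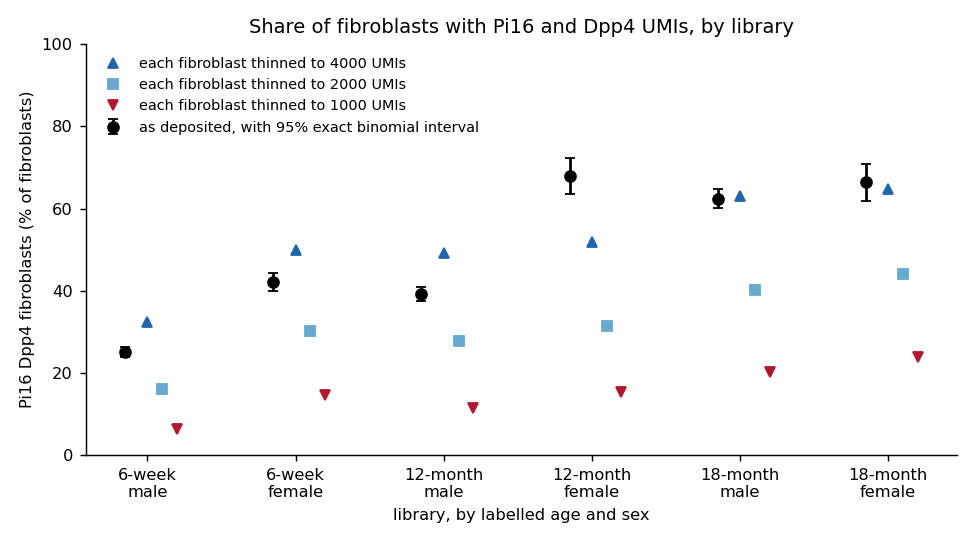
Share of fibroblasts with Pi16 and Dpp4 UMIs in each of the 6 libraries, by labelled age and sex (vertical axis, percent of fibroblasts). Black points are the deposited counts with their 95% exact binomial interval and coloured points are the shares expected with each fibroblast thinned to 4000, 2000 or 1000 UMIs. The library labelled 12-month female falls from 68.0% to 31.5% at 2000 UMIs, while both 18-month libraries stay above the 6-week ones at each depth.

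Sums of UMIs per library were compared between Pi16 Dpp4 fibroblasts and other fibroblasts with edgeR's quasi-likelihood test, each library being its own block. Of 10228 genes tested, 933 passed a Benjamini-Hochberg adjusted p under 0.05, of which 462 (4.52% of the tested genes) were higher in members and 471 (4.61%) lower. Among these, 451 were higher in members in all 6 libraries and 402 lower in all 6. Over all tested genes, called or not, 10.5% were higher in all 6 and 8.63% were lower in all 6. The median log2 fold change of all tested genes was -0.01. Without the rich barcodes, 927 of 10172 genes (9.11%) were higher and 958 (9.42%) lower, so more members of most lists passed in that fit. The groups were made by the detection of 2 genes in the same cells, so genes that vary with Pi16 and Dpp4 across fibroblasts differ between them by the way they were made. Levels below are normalised CPM, which use edgeR's TMM library factors, and a fold change is always members over other fibroblasts. Macrophage and dendritic markers summed to 37.2 to 577 CPM in members and 71.2 to 640 CPM in other fibroblasts, 0 of 14 tested passed, and 0 to 3 of the 15 listed were at 0 in members of a library. Smooth muscle and pericyte markers summed to 22.6 to 58.3 CPM in members and 46.5 to 1576 CPM in other fibroblasts, and 4 of 6 tested were lower in members, against 2 of 5 without the rich barcodes. The part of such markers in the results was not tested beyond the fit without the barcodes rich in them.

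Among secreted signals, members were higher in several Wnt, BMP and semaphorin ligands. Sema3c, a guidance cue that also acts on endothelium, had 375, 672 and 789 normalised CPM in members (lowest, median and highest of 6 libraries), against 131, 204 and 326 in other fibroblasts. The groups did not overlap, and the difference was 1.59 ± 0.19 on the log2 scale (SE, edgeR adjusted p = 0.00159). Sema3d, of the same family, was higher by 1.26 ± 0.22 (edgeR adjusted p = 0.00885). Wnt2 had 66.4, 78.8 and 102 in members, against 12.6, 26.9 and 33.7 in other fibroblasts, again without overlap, a log2 difference of 1.63 ± 0.20 (edgeR adjusted p = 0.00188). Wnt10b, a Wnt ligand known to restrain adipocyte formation, had 18.9, 43.1 and 79.6 in members and 3.16, 12.5 and 30.2 in other fibroblasts (1.75 ± 0.25, edgeR adjusted p = 0.00379). Its ranges overlapped across libraries, but members were higher within each of the 6. Of 16 tested genes in the list of Wnt ligands and inhibitors 6 rose (Wnt2, Wnt11, Wnt10b, Sfrp2, Sfrp4 and Dact2) and Dkk3 fell. The list's median log2 fold change was 0.22. The same 6 rose without the rich barcodes, and Sfrp1 fell as well as Dkk3. For comparison, 4.52% of all tested genes rose and 4.61% fell, or 9.11% and 9.42% without the rich barcodes.

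Bmp7, a bone morphogenetic protein, had 25.0, 49.4 and 61.4 normalised CPM in members and 7.15, 14.0 and 18.0 in other fibroblasts. The groups did not overlap and the log2 difference was 1.73 ± 0.13 (edgeR adjusted p = 0.000285). Of 21 tested BMP and TGF-beta genes 4 rose (Bmp7, Bmp2, Bmp1 and Tgfb2) and 5 fell, among them Gdf10, Tgfbi, Tgfb1 and Id1, a target of BMP signals. With the rich barcodes left out 7 rose and 6 fell. All tested genes gave 4.52% higher and 4.61% lower, and 9.11% and 9.42% in the fit without the rich barcodes. Fgf2 rose by 1.13 ± 0.27 (edgeR adjusted p = 0.0289) and Pdgfd by 1.19 ± 0.21 (edgeR adjusted p = 0.00823), with 155 and 26.4 normalised CPM as member medians and 84.1 and 11.1 as medians in other fibroblasts. For Fgf2 the call is lost when any library other than the 18-month female one is left out. Without the rich barcodes Fgf2 passed, with a smaller log2 rise of 0.85. In the list of VEGF and lymphatic growth genes, 2 of 15 rose (the semaphorins) and 4 fell (Hgf, Angpt1, Angptl1 and Angptl4). Of the 15, 3 rose and 7 fell without the rich barcodes. The lymphangiogenic ligands Vegfc and Vegfd did not pass the test with all barcodes, and without the rich ones Vegfc was lower in members (log2 -0.88, edgeR adjusted p = 0.0201) and Vegfd higher (0.35, edgeR adjusted p = 0.0206). Vegfc was at a median of 2.85 normalised CPM in members and 4.73 in other fibroblasts, and Vegfd at 105 in members and 78.1 in other fibroblasts.

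Enzymes of retinoid and steroid metabolism were among the 12 genes with the largest rise. Aldh1a3, which makes retinoic acid, had 70.0, 87.6 and 139 normalised CPM in members, against 12.6, 21.2 and 33.6 in other fibroblasts, a 4.50-fold difference without overlap (log2 2.17 ± 0.19, edgeR adjusted p = 0.00041). Akr1c18, a steroid dehydrogenase that inactivates progesterone, had 80.1, 243 and 356 in members, against 24.1, 38.5 and 92.0 in other fibroblasts (log2 2.24 ± 0.23, edgeR adjusted p = 0.000749). Dhrs9, a retinol and steroid dehydrogenase, had a median of 50.2 in members and 9.37 in other fibroblasts (log2 1.77). The ranges of Akr1c18 and Dhrs9 overlapped across libraries and not within any.

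Sbsn, Dmkn and Krtdap, best known as secreted products of differentiating epidermis and neighbours on chromosome 7 (30751471 to 30791097 from the start of Sbsn to the end of Krtdap), rose together. Sbsn had 152, 212 and 934 normalised CPM in members and 31.9, 69.3 and 183 in other fibroblasts (log2 2.01 ± 0.16, edgeR adjusted p = 0.000285). Krtdap rose by 2.37 ± 0.24 (edgeR adjusted p = 0.000733) and Dmkn by 1.92 ± 0.20 (edgeR adjusted p = 0.0009). Of 7 listed epithelial marker genes only 2 (Krt8 and Krt18) could be tested, and both were lower in members, with and without the rich barcodes. By library the 7 summed to 0 to 61.0 CPM in members and 0 to 3647 CPM in other fibroblasts. The part of epidermal RNA in the rise of Sbsn, Dmkn and Krtdap was not tested. Further genes of the group were Itgb7, an integrin chain known from lymphocytes, with medians of 72.5 in members and 18.0 in other fibroblasts, the protocadherin Pcdh20 (39.3 in members, 8.37 in other fibroblasts), the actin-associated Limch1 (94.1 in members, 31.6 in others), the chemerin receptor Gpr1 (30.5 in members, 11.7 in others) and the orphan receptor Mrgprg (88.8 in members, 10.6 in others). Pcdh20, Limch1 and Gpr1 did not overlap between members and other fibroblasts.

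**Figure D2:**
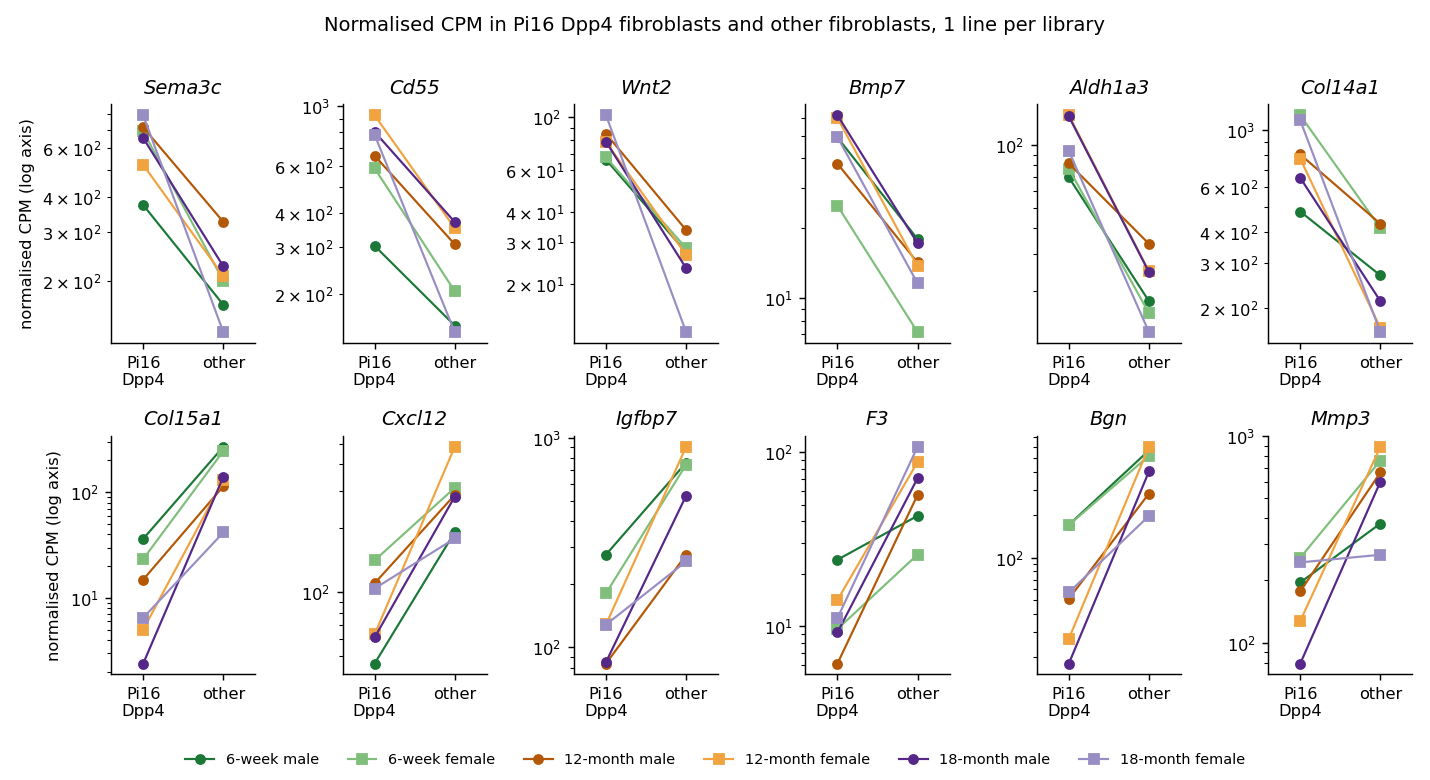
Normalised CPM (log axis) of 12 genes in Pi16 Dpp4 fibroblasts (left of each panel) and other fibroblasts (right), with 1 line per library. Lines of Sema3c, Cd55, Wnt2, Bmp7, Aldh1a3 and Col14a1 run down to the right in all 6 libraries, and lines of Col15a1, Cxcl12, Igfbp7, F3, Bgn and Mmp3 run up.

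Genes known to mark adventitial fibroblasts across organs moved with the rule's genes. Of 36 such genes, none of them in the rule, 24 rose and 0 fell, with a median log2 fold change of 1.02, or 0.75 without the barcodes rich in other cells' markers, when 35 rose. Over all tested genes 4.52% rose and 4.61% fell, or 9.11% and 9.42% without those barcodes. The list was chosen with earlier results of these data known, and the groups were made by detection of Pi16 and Dpp4 in the same cells. The counts are therefore a description and not a test of what the members are. Anxa3, an annexin, had a median of 826 normalised CPM in members and 308 in other fibroblasts (log2 1.49 ± 0.23, edgeR adjusted p = 0.0050). Cd55, a surface protein that shields cells from complement, had 303, 719 and 925 in members and 145, 256 and 371 in other fibroblasts (1.41 ± 0.19, edgeR adjusted p = 0.00258). Il33, a nuclear cytokine released from damaged cells, had medians of 139 in members and 48.6 in other fibroblasts (log2 1.27), and Efhd1 of 173 in members and 58.1 in other fibroblasts (log2 1.67). The 12 that did not pass included the broad fibroblast genes Ly6a, Thy1, Cd34 and Dpt, of which Thy1 was the 1 gene of the 36 that did not pass without the rich barcodes. Dpt had 2882 in members and 2134 in other fibroblasts, and Thy1 had 231 in members and 157 in other fibroblasts, being higher in members in 2 of 6 libraries only.

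The lists of committed preadipocyte genes and of Cd142 regulatory genes ran the opposite way. Of 17 tested preadipocyte genes 14 fell and 0 rose (median log2 -1.75), and of 9 tested Cd142 genes 7 fell and 0 rose (median log2 -2.15). Once the rich barcodes were left out 16 of the 17 and 8 of the 9 fell, and 0 rose in either list. The share of all tested genes that fell was 4.61%, or 9.42% without the rich barcodes. Both lists were also chosen with earlier results of these data known, so their counts are descriptions too. Icam1, the adhesion molecule that marks committed preadipocytes, had 46.6, 72.6 and 175 normalised CPM in members, against 114, 246 and 429 in other fibroblasts (log2 -1.44 ± 0.16, edgeR adjusted p = 0.00128). The fatty acid transporter Cd36 had 1.85, 3.79 and 9.23 in members and 6.32, 16.9 and 51.5 in other fibroblasts (-2.25 ± 0.18, edgeR adjusted p = 0.000285). Pparg, the transcription factor that drives adipocyte formation, was at a median of 2.80 in members and 10.6 in other fibroblasts (log2 -1.75), and Fabp4, a lipid carrier, at 33.4 in members and 334 in other fibroblasts (log2 -2.64). Members were thus lower in all 6 libraries for Icam1, Cd36 and Fabp4 and in 5 of 6 for Pparg. F3, tissue factor, had 6.09, 10.4 and 24.1 in members and 25.8, 63.9 and 108 in other fibroblasts, without overlap (-2.34 ± 0.33, edgeR adjusted p = 0.00345). Adipocyte markers summed to 2.52 to 14.3 CPM in members and 5.21 to 314 CPM in other fibroblasts, and their part in these differences was not tested.

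The 12 genes with the largest fall were Itga6, Prlr, Agt, Sparcl1, Acta2, Myh11, Cxcl14, Tagln, Col15a1, Tmem176b, Tmem176a and Hp. Sparcl1, a matrix glycoprotein that limits adhesion, had 6.44, 20.2 and 27.8 normalised CPM in members, against 152, 300 and 397 in other fibroblasts, a 15.4-fold difference with no overlap (log2 -3.94 ± 0.43, edgeR adjusted p = 0.00116). Agt, the precursor of angiotensin, had 0.463, 2.02 and 10.4 in members and 4.52, 37.4 and 137 in other fibroblasts (-3.97 ± 0.33, edgeR adjusted p = 0.000348). Tmem176a and Tmem176b, which overlap at their ends on opposite strands of chromosome 6 and may share reads, fell by 3.25 and 3.50 on the log2 scale. Of the smooth muscle genes, Acta2 differed by -3.75, but by -1.39 without the barcodes rich in other cells' markers, and Tagln by -3.61, but by -0.99 without them. Hp, haptoglobin, differed by -3.21 with these barcodes and by -1.97 without them. Itga6, Prlr and Myh11 had too few UMIs to be tested after that removal. The other 74 of 77 named genes that passed the test were tested again without these barcodes, and all of these 74 passed.

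Matrix genes changed in both directions. Among collagens, Col15a1, a basement membrane collagen, had 2.39, 10.7 and 36.2 normalised CPM in members and 41.6, 135 and 270 in other fibroblasts (log2 -3.60 ± 0.36, edgeR adjusted p = 0.000733). Col4a2 had 19.5, 66.7 and 102 in members and 115, 356 and 442 in other fibroblasts (-2.45 ± 0.48, edgeR adjusted p = 0.0141). Neither overlapped. Of 15 tested basement membrane genes 6 fell (Col4a1, Col4a2, Col4a3, Col15a1, Col18a1 and Nid2) and 0 rose, with the laminin chains Lama2, Lama4, Lamb1 and Lamc1 among the 9 that did not pass. Without the rich barcodes these 6 and Hspg2 fell, and Col4a5, Lama4 and Nid1 rose, by 0.45, 0.26 and 0.39 on the log2 scale. The call of Col4a2 is lost without the 6-week female library or the library labelled 12-month female. Col14a1, a collagen on the surface of fibrils, went the other way, with 479, 789 and 1147 in members and 161, 241 and 429 in other fibroblasts (1.62 ± 0.25, edgeR adjusted p = 0.00492). The fibril-forming collagens Col1a1 and Col3a1 did not pass with all barcodes, with medians of 1453 in members and 2149 in other fibroblasts for Col1a1, and 2304 in members and 4574 in other fibroblasts for Col3a1. Without the rich barcodes Col3a1 was lower in members (log2 -0.84, edgeR adjusted p = 0.0126) and Col1a1 still did not pass. Of 18 genes of fibrillar collagens and their processing, 2 rose and 1 fell with all barcodes, and 3 rose and 8 fell without the rich ones (median log2 -0.06 and -0.34). Shares over all tested genes were 4.52% higher and 4.61% lower, or 9.11% and 9.42% without the rich barcodes. A count near these shares says little about its list.

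Among fibril processing genes Pcolce2, an enhancer of procollagen cleavage, rose to 855, 1195 and 1456 normalised CPM in members, against 188, 689 and 890 in other fibroblasts (log2 1.00 ± 0.24, edgeR adjusted p = 0.0332), as did the protease Bmp1 (0.80), while the crosslinking enzyme Lox fell (-1.07). Of 17 elastic fibre and microfibril genes 3 rose, namely Mfap5, Emilin2 and Fn1, and Mfap4 fell, and without the rich barcodes 7 rose and 3 fell. Beside this and the next lists stand 4.52% of all tested genes higher and 4.61% lower, or 9.11% and 9.42% without the rich barcodes. Fn1, fibronectin, had 4057, 4630 and 4973 in members and 770, 2643 and 3088 in other fibroblasts (1.03 ± 0.26, edgeR adjusted p = 0.0387). The lowest values of other fibroblasts for Pcolce2, Mfap5, Emilin2 and Fn1 all came from the 18-month female library. The calls of Fn1, Pcolce2 and Emilin2 are lost when any library but the 18-month female one is left out. Without the rich barcodes Pcolce2, Mfap5, Emilin2, Fn1 and Bmp1 passed, with smaller log2 rises of 0.70, 0.81, 0.77, 0.74 and 0.54. The call of Mfap5 is lost without the 6-week female, either 12-month or the 18-month male library, that of Bmp1 without either 12-month or the 18-month male library, and that of Lox without the 6-week female or either 12-month library. Of the small proteoglycans, biglycan (Bgn) had 18.0, 54.2 and 170 in members and 197, 461 and 601 in other fibroblasts (-2.69 ± 0.44, edgeR adjusted p = 0.00618) and Omd rose (0.97), while without the rich barcodes 2 of the 7 tested rose and 3 fell. Of 9 tested hyaluronan genes Has2, a hyaluronan synthase, rose (0.89) and the hyaluronan receptor Cd44 fell (-0.51), and without the rich barcodes 5 of 8 rose and 2 fell. The call of Has2 is lost without the 6-week female or either 12-month library, and that of Cd44 when any library but the 18-month female one is left out, with no filter on low counts, and against cells with neither Pi16 nor Dpp4. Of 17 proteases and inhibitors Plat rose and 4 fell, among them Mmp3, Mmp19 and Timp1, and without the rich barcodes 5 rose and 5 fell. Mmp3, stromelysin, had 79.1, 186 and 258 in members and 267, 636 and 891 in other fibroblasts, without overlap (-1.72 ± 0.35, edgeR adjusted p = 0.0159), a call lost without the 6-week female or either 12-month library. The insulin-like growth factor binding proteins split. Igfbp4, Igfbp5 and Igfbp6 rose and Igfbp7 fell, to a median of 128 in members, against 636 in other fibroblasts (log2 -1.95), and Igf1 itself fell (-0.83). The call of Igfbp4 is lost without either 12-month or the 18-month male library. Of 8 tested genes of the list 4 rose and 4 fell without the rich barcodes.

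Chemokines that attract leukocytes were lower or did not pass. Cxcl12, which retains lymphocytes and stem cells, had 46.1, 83.7 and 141 normalised CPM in members, against 179, 285 and 484 in other fibroblasts, without overlap (log2 -1.74 ± 0.26, edgeR adjusted p = 0.00416). Cxcl14 had 7.17, 23.9 and 91.8 in members and 132, 374 and 716 in other fibroblasts (-3.64 ± 0.58, edgeR adjusted p = 0.00539). Ccl19 and Cxcl9 fell as well, Il33 rose, and the other 14 of 19 tested did not pass. Of the 19, 8 fell and Il33 rose without the rich barcodes. Ccl2 had medians of 1235 in members and 1109 in other fibroblasts, and Cxcl1 had 1428 in members and 1526 in other fibroblasts. Of 11 complement genes Cd55 was the only one to pass with all barcodes. Without the rich barcodes Cd55 and C3 rose and 6 fell, among them C4b, C1s1, Cfd, Clu and C7, with a median log2 fold change of -0.26 over the 11. Of 19 surface genes 3 rose (Ackr3, Cadm3 and Ptgs2) and 6 fell (Vcam1, Icam1, Cd9, Cd81, Cdh11 and Ptger3), against 7 and 7 without the rich barcodes. Ackr3, a scavenger receptor for Cxcl12, had medians of 449 in members and 247 in other fibroblasts (1.16). Of 27 transcription factors Tbx5, Osr2, Creb5 and Foxp1 rose, and Klf5 and Meox2 fell, against 7 that rose and 7 that fell without the rich barcodes. Among all tested genes 4.52% rose and 4.61% fell, or 9.11% and 9.42% without the rich barcodes. The complement count with all barcodes was near these shares.

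Some immediate early and dissociation genes, which digestion of tissue is known to induce, were lower in members. Of 24 tested 7 fell (Fosb, Jun, Egr2, Ier2, Btg2, Hspa1a and Hspa1b) and 0 rose, with a median log2 fold change of -0.35. In the fit without the rich barcodes 15 fell and 0 rose, with a median of -0.31. Jun had 339, 866 and 1117 normalised CPM in members and 1135, 1308 and 2510 in other fibroblasts (-0.90 ± 0.18, edgeR adjusted p = 0.0136). Members had median depths of 4605 UMIs and mitochondrial shares of 1.28% (medians over libraries), against 3416 UMIs and 1.85% in other fibroblasts. Whether depth or response to digestion has a part in these differences was not tested, beyond a fit on cells paired by total UMIs (1494 genes called, 806 of them also among the 933). Of 18 interferon-induced genes Iigp1 fell, a call lost without any 1 of the 6-week and 12-month libraries, and 0 of 12 MHC class I, 0 of 18 oxidative stress and 0 of 4 tested cell cycle genes passed. Without the rich barcodes 3 interferon-induced genes rose and 3 fell, 2 oxidative stress genes fell, and none of the tested MHC class I and cell cycle genes passed. Across all tested genes 4.52% rose and 4.61% fell, or 9.11% and 9.42% without the rich barcodes. The interferon count with all barcodes was near these shares.

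**Figure D3:**
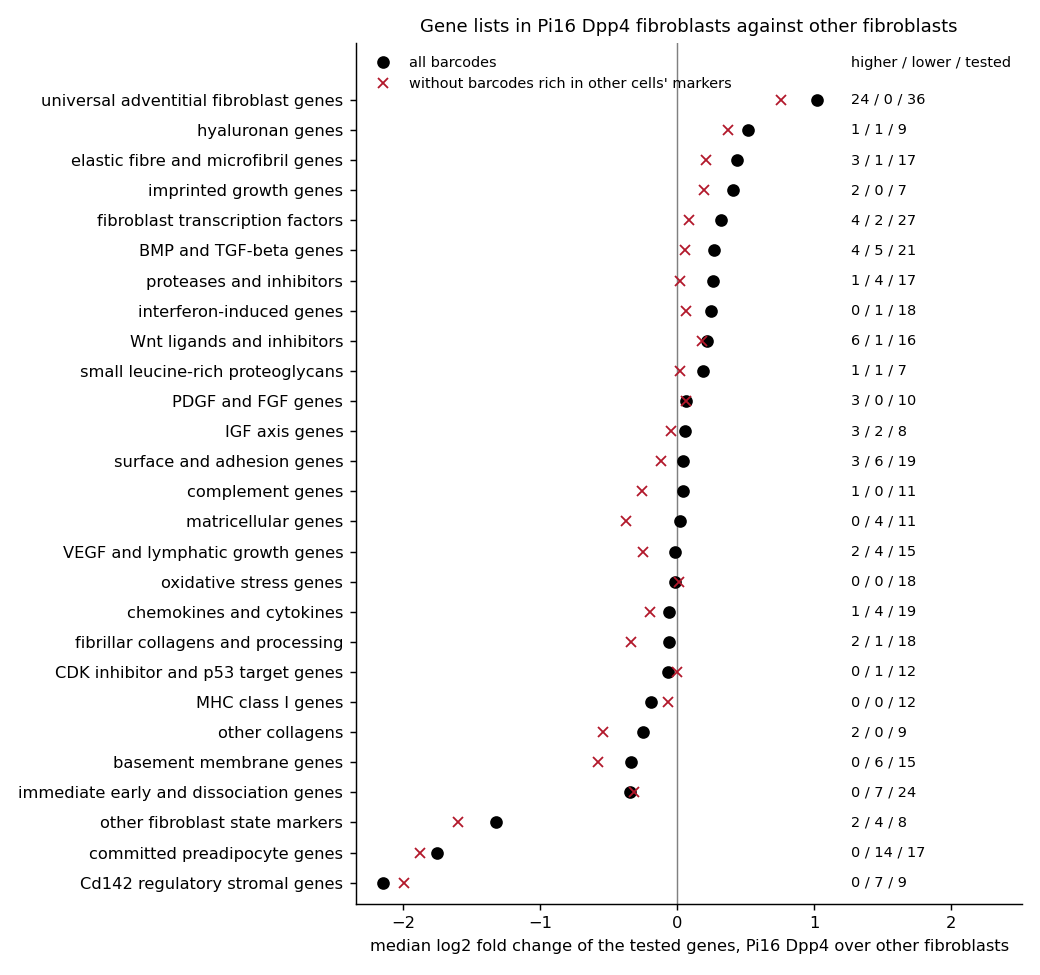
Median log2 fold change, Pi16 Dpp4 fibroblasts over other fibroblasts, of the tested genes of 27 lists (horizontal axis), with the numbers higher, lower and tested at the right. Black circles are all barcodes and red crosses leave out barcodes rich in other cells' markers. The adventitial list is farthest to the right at 1.02, and the preadipocyte and Cd142 lists are farthest to the left at -1.75 and -2.15.

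Fibroblasts with UMIs of only 1 of the 2 genes lay between for most named genes. With barcodes rich in other markers left out there were 4709 fibroblasts with both genes, 1811 with Pi16 alone, 1340 with Dpp4 alone and 3920 with neither. Sema3c had median levels over libraries of 684, 458, 299 and 95.3 CPM in these classes in that order. Aldh1a3 had 93.4, 71.6, 17.3 and 5.67, and Akr1c18 had 230, 141, 56.5 and 10.3. Of the 36 named genes called higher in members, 35 had both classes with 1 gene between the cells with both and those with neither, and in all 36 the Pi16-alone cells were the nearer to members. Among the 41 called lower, 30 had this order, and the Pi16-alone cells were nearer to members for 26 and the Dpp4-alone cells for 15. Col15a1 had 11.1, 62.6, 66.1 and 281 CPM, Cxcl14 had 25.0, 172, 85.0 and 659, and Igfbp7 had 128, 368, 351 and 1004. The classes differed in depth, with medians of 4601, 3172, 4051 and 3171 UMIs, and a shallow cell with both transcripts can be counted as having 1, so the order is a description with no test. Against the cells with neither gene, 1353 genes passed in place of 933.

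**Figure D4:**
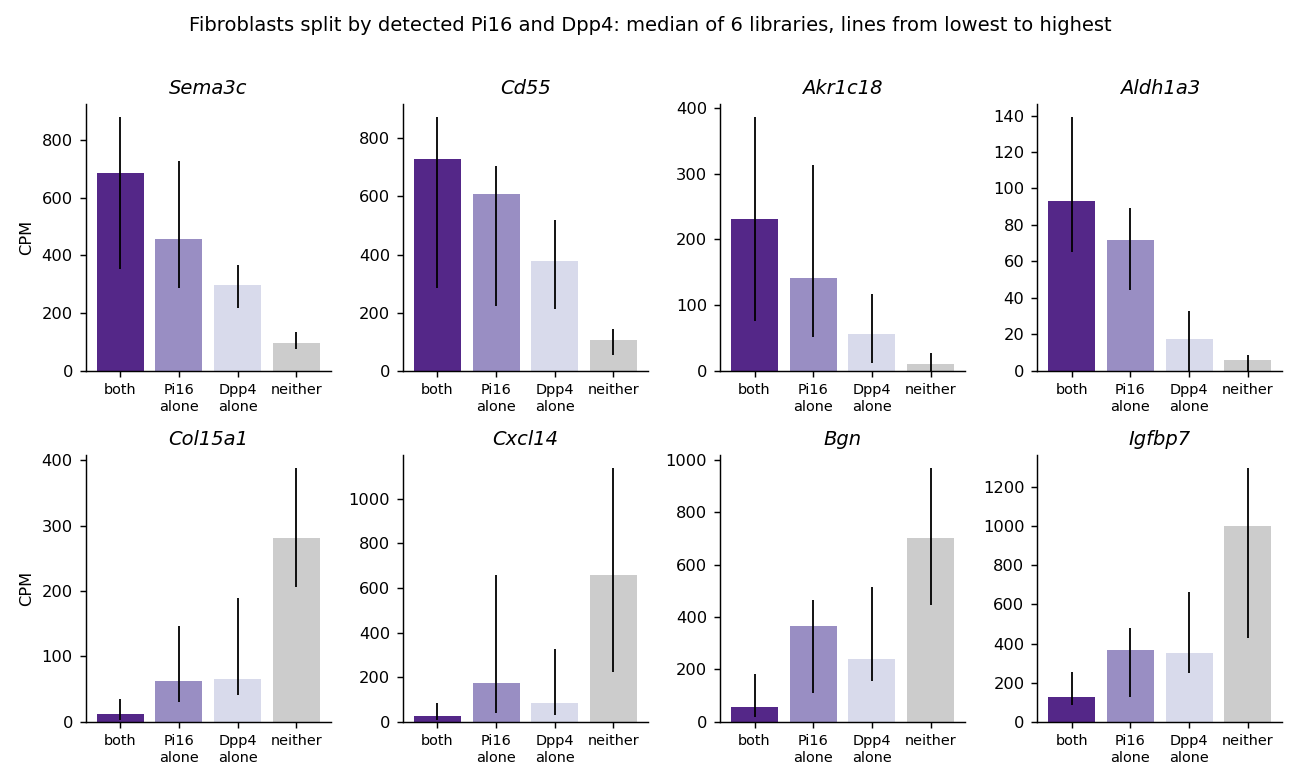
CPM of 8 genes (vertical axes, from 0) in fibroblasts with Pi16 and Dpp4 UMIs, with Pi16 alone, with Dpp4 alone and with neither. Bars are medians of 6 libraries and lines run from the lowest to the highest library. Sema3c, Cd55, Akr1c18 and Aldh1a3 step down from left to right, and the highest bar of Col15a1, Cxcl14, Bgn and Igfbp7 is that of cells with neither gene.

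At equal depth the marker genes still divided the cells incompletely. With each cell thinned to 2000 UMIs, Anxa3 was expected in 77.7% of members and 39.2% of other fibroblasts (medians of 6 libraries), Cd55 in 67.3% of members and 30.8% of other fibroblasts, Sema3c in 69.6% of members and 28.5% of others, and Ly6c1 in 82.2% of members and 63.5% of others. Without thinning the shares were 93.7% of members and 51.5% of others for Anxa3, 85.4% of members and 45.3% of others for Cd55, and 88.1% of members and 44.2% of others for Sema3c. Col15a1 was expected in 1.54% of members and 19.2% of other fibroblasts, Icam1 in 11.1% of members and 30.4% of others, F3 in 1.46% of members and 7.29% of others, and Agt in 0.312% of members and 5.71% of others. Unthinned, Col15a1 had a UMI in 3.90% of members and 31.1% of others, and Icam1 in 20.1% of members and 40.5% of others. Genes known to mark further fibroblast states ranged widely. Of 8 tested in their list 2 rose (Smpd3 and Akr1c18) and 4 fell (Cilp, Hmcn1, Col15a1 and Agt). The median log2 fold change of that list was -1.32, and 2 rose and 5 fell without the rich barcodes. Shares of all tested genes were 4.52% higher and 4.61% lower, or 9.11% and 9.42% without the rich barcodes. Unthinned shares of these markers, as medians of 6 libraries and not matched for depth, follow. Smpd3 had a UMI in 56.8% of members and 26.0% of other fibroblasts, and Akr1c18 in 43.1% of members and 9.60% of others. Postn had a UMI in 55.5% of members and 46.5% of others. Thinned to 2000 UMIs, Smpd3 was expected in 36.7% of members and 18.6% of others, Akr1c18 in 27.2% and 6.73%, and Postn in 42.7% and 38.2%. Lower in members by these medians were Cilp, in 3.51% of members and 7.09% of others, and Fgf10, in 3.78% of members and 7.11% of others. Fgf10 went the other way in the 18-month female library, with 18.5% of members and 6.80% of others, or 7.21% and 5.14% when thinned. Hmcn1 had a UMI in 1.31% of members and 3.98% of others, and Thbs4 in 0.0411% of members and 1.00% of others. Tnmd, Angptl7, Coch, Crabp1 and Inhba, named after their values had been seen, had medians of 0.148% to 0.505% of members and 0% to 2.10% of other fibroblasts.

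Members of the 3 ages were compared with 1 model of age over the 6 member sums. With 2 libraries an age the test had 3 residual degrees of freedom, and edgeR called 0 of 10971 genes between any pair of ages. At an unadjusted p under 0.05 there were 852 genes for 12 months against 6 weeks, 448 for 18 months against 6 weeks and 394 for 18 against 12 months. DESeq2 called 38, 23 and 1 genes for these contrasts, so the values that follow are descriptions. On simulated counts with these library sizes, the 18-month contrast recovered 73% of genes changed by a log2 fold of 1 and 100% of those changed by 2. The simulated counts varied less between libraries than the member sums did, so these shares do not measure recovery in the data. Library pairs of different ages often do not overlap by themselves: both 12-month values lay above both 6-week values in 21.1% of all tested genes and below in 22.7%, and both 18-month values lay above in 16.2% and below in 17.7%. In either direction the pairs did not overlap in 43.8% of genes for 12 months against 6 weeks, in 33.9% for 18 months against 6 weeks and in 32.1% for 18 months against 12 months.

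The genes of smallest p in the first contrast were Itm2a, Mrgprg and Slc7a11, none of which passed with age alone in the edgeR model. DESeq2 called all 3 (adjusted p = 2.61e-08, 3.56e-12 and 0.00522), and edgeR called Itm2a and Mrgprg (adjusted p = 0.0226 each) with labelled sex added and the 12-month pair exchanged. Itm2a, a membrane protein of differentiating mesenchyme, had 254 and 270 normalised CPM at 6 weeks, 46.6 and 19.9 at 12 months and 32.4 and 36.3 at 18 months, in the order male and female label (12 months over 6 weeks log2 -2.97 ± 0.41, edgeR adjusted p = 0.596). Mrgprg had 1.34 and 4.94 at 6 weeks, 205 and 65.8 at 12 months and 140 and 112 at 18 months (5.48 ± 0.76, edgeR adjusted p = 0.596). Slc7a11, the cystine transporter, had 2.02 and 1.45, then 15.9 and 13.9, then 7.87 and 4.14. Tgm2, a crosslinking transglutaminase, had 32.9 and 51.2 at 6 weeks, 32.6 and 28.8 at 12 months and 7.14 and 7.81 at 18 months (18 months over 6 weeks log2 -2.49 ± 0.33, edgeR adjusted p = 0.681), and both of these alternatives called it (adjusted p = 8.27e-05 with DESeq2 and 0.0433 with edgeR and sex). Tfpi2, a protease inhibitor, was also lowest at 18 months, with 43.0 and 52.9, 49.9 and 49.9, and 17.9 and 10.6. Ankrd1 was high at 12 months, with 0.896 and 0.581 at 6 weeks, 21.1 and 5.69 at 12 months and 1.28 and 0.919 at 18 months. In each of these genes the 2 libraries of the age named lay apart from those of the age compared.

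Many fibrillar collagens and their processing genes lay below the 6-week pair at both later ages. Both 12-month libraries lay below both 6-week libraries in 13 of 18 tested genes and above in 0, with a median log2 fold change of -0.89, and both 18-month libraries lay below in 12 of 18 and above in 0, with a median of -1.05. The medians of all genes were -0.02 and 0.00. Over all tested genes 22.7% lay below and 21.1% above at 12 months, and 17.7% below and 16.2% above at 18 months. In the same members, macrophage and dendritic markers lay below the 6-week pair in 7 of 15 genes at 12 months and 14 of 15 at 18 months, and above in 0, and their part in these differences was not tested. None of the 18 passed the test. Col3a1 had 24101 and 6262 normalised CPM at 6 weeks, 2333 and 1180 at 12 months and 1349 and 2249 at 18 months. Col1a1 had 14952 and 3142, then 1278 and 1142, then 1049 and 1611. The 6-week male library thus lay far above the 6-week female one. The list of imprinted growth genes, which are known to be active in juvenile tissue, gave 7 of 9 below at 12 months and 4 of 9 at 18 months, with 0 above. Meg3 had 1349 and 1099, then 272 and 172, then 315 and 524, and Mgp, the calcification inhibitor, had 97.7 and 83.7, then 8.98 and 0.948, then 5.86 and 9.65. DESeq2 called Col3a1, Col1a1, Meg3 and Mgp in both contrasts with 6 weeks, and edgeR did not.

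**Figure D5:**
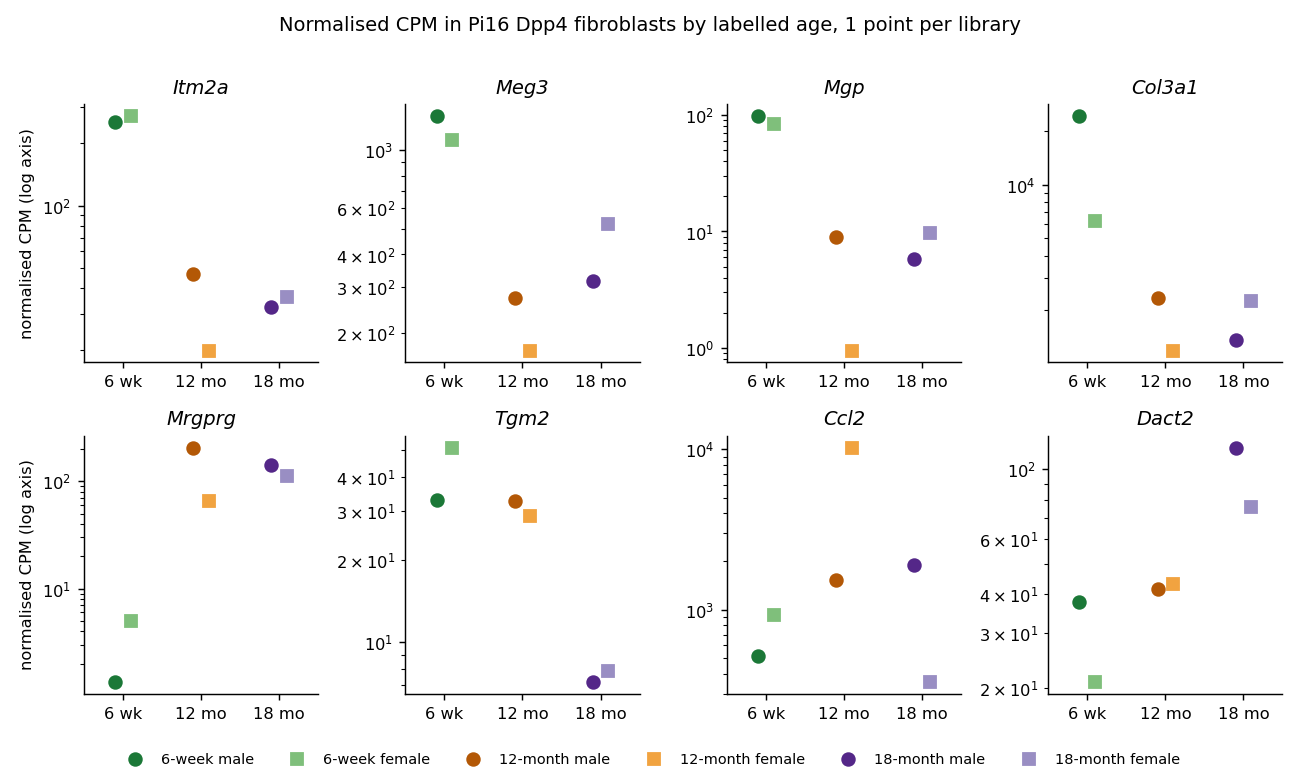
Normalised CPM (log axes) of 8 genes in Pi16 Dpp4 fibroblasts at 6 weeks, 12 months and 18 months, with 1 point per library and the colour giving the library. Itm2a, Meg3, Mgp and Col3a1 are highest in the 6-week pair, Mrgprg is at 1.34 and 4.94 there, Tgm2 is lowest at 18 months, and Ccl2 is highest in the library labelled 12-month female.

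None of the genes of the adventitial list passed the test of age in members. The adventitial list summed to 18559 and 20463 CPM at 6 weeks, 19753 and 22158 at 12 months and 20813 and 21956 at 18 months, with medians of 0.24 and 0.21 on the log2 scale for 12 and 18 months over 6 weeks. Both later libraries lay above the 6-week pair in 10 of its 36 genes in each contrast and below in 3 and 4. Over all tested genes the shares were 21.1% above and 22.7% below at 12 months, and 16.2% above and 17.7% below at 18 months. Cd55 had 301 and 587 normalised CPM at 6 weeks, 652 and 934 at 12 months and 800 and 778 at 18 months. Il33 had 85.6 and 87.2, then 144 and 162, then 133 and 179. Dact2, an inhibitor of Wnt signalling, had 37.6 and 20.9, then 41.6 and 43.0, then 117 and 75.8 (18 months over 6 weeks log2 1.72). Wnt5a went the other way, with 89.1 and 66.6, then 28.0 and 27.2, then 47.2 and 38.6. Sema3c had 373 to 783 and Wnt2 66.1 to 101 over the 6 libraries, with no ordering that kept the ages apart beyond the 6-week pair of Wnt2 being lowest.

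Some inflammatory genes were highest in the library labelled 12-month female. Ccl2 had 513 and 924 normalised CPM at 6 weeks, 1536 and 10223 at 12 months and 1897 and 354 at 18 months, the second 12-month value being that of the library labelled female. Il6 had 209 and 118, then 270 and 1185, then 251 and 172, and the interferon-induced Ifit1 had 42.6 and 48.8, then 72.9 and 484, then 61.2 and 51.9. The chemokine list lay above the 6-week pair at 12 months in 9 of 19 genes and below in 2, the interferon list above in 8 of 18 and below in 0, and the hyaluronan list above in 6 of 9 and below in 1, and none of them passed the test. The shares of all genes were 21.1% above and 22.7% below. At 18 months the chemokine list lay above in 3 and below in 3, the interferon list above in 3 and below in 0, and the hyaluronan list in 0 either way, against 16.2% above and 17.7% below over all genes. Macrophage and dendritic markers in members summed to 577 and 335 CPM at 6 weeks, 333 and 37.2 at 12 months and 207 and 48.7 at 18 months. The part of macrophage RNA in the levels of Ccl2, Il6 and Ifit1 was not tested.

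The library labelled 12-month female and the 18-month male library, the later libraries with Y-linked UMIs, shared levels that did not follow age. These genes were picked after their values had been seen. Postn, periostin, had 29.1 and 14.8 normalised CPM in these 2 libraries, against 441 to 1105 in the other 4. Lum, lumican, had 67 and 49.1, against 466 to 1270, and Eln, elastin, had 64.5 and 72.7, against 126 to 399. Lypd5 had 92.9 and 65.2 and was at 0 in the other 4, and Clic5 had 158 and 91.7, against 0 to 6.72. In the thinned cells Postn was expected in 3.74% and 1.62% of members of these libraries, against 41.4% to 72.1% in the other 4, and in 0.755% and 4.17% of their other fibroblasts, against 38.1% to 76.2%. These 2 libraries also had 2 of the 3 largest member shares.

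No gene passed the edgeR test of a difference in age change between members and other fibroblasts. The interaction of cell group and age gave 0 calls of 11641 genes at 12 months and 0 at 18 months with edgeR (98 and 341 genes at an unadjusted p under 0.05, smallest adjusted p = 0.325 and 0.747), and DESeq2 called 0 and 2. On simulated counts this test recovered 21% of genes with an extra log2 change of 1 and 85% of those with 2. The simulated spread was again smaller than that of the data, so recovery in the data is not known. The 2 calls of DESeq2 were Plin2 and Car3. Plin2, a coat protein of lipid droplets, had 42.9 and 33.5 normalised CPM in members at 6 weeks, 57.1 and 23.1 at 12 months and 32.0 and 53.4 at 18 months. In other fibroblasts it had 90.3 and 67.6, then 97.5 and 37.3, then 225 and 437. The log2 difference of the 18-month changes was -1.88 ± 0.26 (edgeR adjusted p = 0.747). Car3, a carbonic anhydrase of adipocytes and muscle, had its highest value, 299, in other fibroblasts of the 6-week male library.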

How the data were processed

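The deposited matrices of the 6 single-cell RNA libraries hold whole-number UMI counts per gene for every droplet barcode, per the file headers, with no cells called and nothing normalised, and each library's files list 6794880 barcodes. The labels name a 3′ kit of v2 chemistry, and that number of barcodes belongs to a later kit. Per the submitters' processing notes the authors used Cell Ranger 3.0.2, the mm10 build and Seurat, whose version and settings are not given in the sources used here. How the counting treated strand is not given in the sources used here. Whether reads of a gene and of an overlapping antisense partner were told apart is therefore not known here.

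The members and the 40 gene lists were chosen with earlier results of these data known. Of 31053 gene IDs, 31011 were found in GENCODE M21 (GRCm38), which gave coordinates, and IDs of the same symbol were summed (31017 symbols). UMI counts were summed per library and cell group, with a minimum of 20 cells. The sums were tested in R 4.3.3 by edgeR 4.0.16, with TMM factors, filterByExpr and the quasi-likelihood F test, and library as a block where members and other fibroblasts were compared. The 7 rule genes stayed in library sizes and out of the tests. The block comes from the design, since both sums of a library come from the same digest. DESeq2 1.42.0 and limma 3.58.1 (loaded by edgeR) served the alternatives, and Python 3.11.15 the rest, with scanpy 1.11.5 (Scrublet, 6% expected doublets), anndata 0.12.19, pandas 2.3.3, scipy 1.17.1, scikit-learn 1.9.0, numpy 2.4.6 and matplotlib 3.10.9. Thinned shares are exact hypergeometric expectations. The common biological coefficient of variation was 0.184 between the groups of fibroblasts and 0.335 between ages.

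Named genes followed a rule. For members against other fibroblasts it took, in each direction, the 12 largest log2 changes among calls averaging at least 30 CPM in the higher group and going the same way in every library, and up to 3 members of smallest p from each of 28 lists of biology. For the ages and interactions, which gave under 3 calls, it took the 3 genes of smallest p, and for age it would have added called list members. A large fold did not name hemoglobin, immunoglobulin, mitochondrial, ribosomal or predicted genes. Other genes are named from the lists or, where so stated, after their values were seen. The other 12 lists hold markers of other cell types. Scripts were tested on simulated data, in which 99% of genes changed by a log2 fold of 1 were recovered for members against other fibroblasts. The simulated spread was smaller than that of the data in all 3 fits.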

Additional observations from a re-analysis of the deposited data

Results flagged for a closer look

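Of 96 named genes, 15 had 1 library whose difference between members and other fibroblasts lay far from the other 5 by Dixon's test, which chance alone gives for about 1 in 20 genes. In 13 of the 15 that library was the 18-month female one, whose other-fibroblast sum held the barcodes rich in other cells' markers. The values are log2 of members over other fibroblasts in that library. They were 1.82 for Bmp1 (0.40 to 0.81 in the other 5 libraries), 2.52 for Pcolce2 (0.57 to 0.87), 2.56 for Mfap5 (0.77 to 0.98), 2.60 for Emilin2 (0.64 to 0.91), 2.56 for Fn1 (0.39 to 1.06) and 2.16 for Omd (0.60 to 0.97). They were 2.13 for Has2 (0.56 to 0.82), 2.11 for Ugdh (0.37 to 0.59), 2.43 for Cd55 (0.98 to 1.51), 2.91 for Wnt2 (1.23 to 1.71), 3.06 for Fgf2 (0.67 to 0.93) and 1.75 for Gstm1 (0.06 to 0.26). Nid2 was the 1 gene of these that fell elsewhere, with 0.25 in the 18-month female library and -1.45 to -0.96 in the others. The 2 remaining genes were Igfbp5, with 0.20 in the 6-week male library (1.11 to 1.55 in the others), and Lmnb1, with 1.75 in the library labelled 12-month female (0.16 to 0.75 in the others). In the fit without the rich barcodes of any library, the log2 fold over libraries went from 1.00 to 0.70 for Pcolce2 and from 1.03 to 0.74 for Fn1. It went from 1.13 to 0.85 for Fgf2, from 0.89 to 0.65 for Has2 and from 0.42 to 0.15 for Gstm1. The rises of the other genes set apart by the 18-month female library were also smaller, and the fall of Nid2 went from -1.18 to -1.30. The part of those barcodes in the difference within that library was not tested further.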

How the results depend on the processing

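Of the 77 named genes called for members against other fibroblasts, 57 passed in every setting with the library block in which they were tested, and none of the 96 changed sign in any of 15 settings. The count of 933 was 1683 with no filter on low counts, 1494 with cells matched in total UMIs, 182 with no replicate block, and 1885 with barcodes rich in other cells' markers removed, a setting added after seeing the data (892 of the 933 called again). It was 483 to 1749 with 1 library left out, the highest without the 18-month female library and the lowest without the 6-week female one. For 12 months against 6 weeks in members, the count of 0 became 371 with no filter, 38 with DESeq2 and 17 with labelled sex added and the 12-month pair exchanged. For 18 months against 6 weeks in members it became 211, 23 and 9 in the same settings, and for 18 months against 12 months in members 62 with no filter and 1 with DESeq2. The difference of the 12-month change between members and other fibroblasts gave 9 calls with no filter, 13 matched in total UMIs, 6 without the rich barcodes, and 0 to 4 with 1 library left out. The difference of the 18-month change between members and other fibroblasts gave 9, 6 and 6 in these settings, 2 with DESeq2 and 0 to 1623 with 1 library left out, the highest without the 18-month male library, which leaves the 18-month female one alone at that age and assumes that it varies like the others. Aqp5 in that comparison had -6.47, and -6.57 to 0.85 with 1 library left out, the sign turning without the 18-month female one. The share of members at 18 months minus 6 weeks was 30.9 points, 11.5 with fibroblasts thinned to 1000 UMIs and 22.4 to 39.4 with 1 library left out, and at 12 months minus 6 weeks it was 20.0, 2.91 and 5.55 to 34.4. The causes were not tested. Member sums of 1951296 to 5401161 UMIs limit genes of low level, and 2 libraries an age limit every statement on age.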
